A study of Mus musculus with 6 samples.

Results

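The amino acid transporter genes described here are those of the solute carrier (SLC) families SLC1, SLC3, SLC6, SLC7, SLC36, SLC38 and SLC43. A probe was taken where its transcript accession mapped to a symbol of one of these families, whatever its signal. This took 79 of 39429 probes and 62 of 20659 named genes. They comprised 7 genes of SLC1, 2 of SLC3, 19 of SLC6, 16 of SLC7, 4 of SLC36, 11 of SLC38 and 3 of SLC43. One of them, Slc7a6os, is a separate gene named for lying opposite Slc7a6 and is no carrier, which left 61 transporter genes. RNA came from cultured CD63+ cells sorted from adult mouse liver, 3 samples from livers with DDC-induced injury and 3 from livers without injury, each on 1 single-colour Agilent array. DDC is a compound that blocks haem synthesis and injures the bile ducts of mice, and CD63 is a tetraspanin of endosomes and lysosomes. Both groups were grown in DMEM/F12 with serum, HGF, EGF, insulin, transferrin, selenium, dexamethasone and nicotinamide, so all levels are those of cultured cells and not of cells fresh from the liver. VEGF and bFGF were added to cultures that the labels do not tie to samples, and the part of this treatment in the differences was not tested. Strain, age, the dose and time of DDC, and whether the samples of a group came from separate animals are not given in the sources used here. The p-values therefore measure only the spread between these samples, which may be technical.

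Amino acid transporters decide which amino acids enter and leave a cell. SLC7 light chains such as LAT1 (Slc7a5) and xCT (Slc7a11) reach the membrane only when bound to a heavy chain of SLC3, while SLC1 and SLC38 carriers need no heavy chain, and many use the sodium gradient to concentrate neutral or acidic amino acids. Exchangers then trade the glutamine gathered in this way for leucine and other essential amino acids. SLC6 holds carriers of taurine, creatine, glycine and neurotransmitters, SLC36 proton-coupled carriers, and SLC43 carriers of large neutral amino acids. When amino acids run short or other stresses act, the kinase GCN2 and related kinases raise the factor ATF4, which binds amino acid response elements in several transporter genes.

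The letters of that element's core, TGATGNAA on either strand, were searched in RefSeq promoters of GRCm38.p6, each of 250 bases before and 50 after an annotated start. Promoters were held for 44 of the 62 genes, and 4 of these contained the core: Slc7a11, Slc1a4, Slc7a7 and Slc6a21. Of 64 promoters of the family genes 5 (7.81%) held it, 2 of them overlapping promoters of Slc7a7 that share a match, against 1304 of 32851 promoters of all genes (3.97%). Cores of the antioxidant response element (TGACNNNGC) and the E-box (CACGTG) were searched too. They were in 15.6% and 12.5% of the 64 promoters, against 12.4% and 7.15% of all promoters. A higher share was therefore not particular to the amino acid response core. The sequences of Slc7a11 (chr3:50443614-50443863, minus strand), Slc1a4 (chr11:20332710-20332963, minus strand) and one start of Slc7a7 (chr14:54417938-54418194, minus strand) are shown because all 3 genes were bright enough to test, and the first and second had large differences between the groups while the groups overlapped in Slc7a7. Each is written 5′ to 3′ up to the annotated start or to the end of a match that crosses it, with matches of the amino acid response core in capitals.
Slc7a11: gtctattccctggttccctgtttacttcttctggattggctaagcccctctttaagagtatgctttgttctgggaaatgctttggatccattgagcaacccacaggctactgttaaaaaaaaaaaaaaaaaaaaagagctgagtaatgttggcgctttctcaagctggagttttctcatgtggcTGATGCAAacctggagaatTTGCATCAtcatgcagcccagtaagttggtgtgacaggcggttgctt
Slc1a4: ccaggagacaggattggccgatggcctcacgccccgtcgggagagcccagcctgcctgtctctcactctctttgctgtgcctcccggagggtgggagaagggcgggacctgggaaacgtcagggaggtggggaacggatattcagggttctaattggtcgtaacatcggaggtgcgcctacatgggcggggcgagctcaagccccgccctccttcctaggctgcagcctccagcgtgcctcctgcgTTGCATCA
Slc7a7: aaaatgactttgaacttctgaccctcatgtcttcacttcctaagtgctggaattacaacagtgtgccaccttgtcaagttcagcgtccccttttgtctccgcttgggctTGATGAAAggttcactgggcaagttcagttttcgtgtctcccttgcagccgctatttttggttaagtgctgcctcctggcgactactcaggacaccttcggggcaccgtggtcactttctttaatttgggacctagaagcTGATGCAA
In Slc7a11 a match on each strand began 66 and 47 bases before the start, and the match of Slc1a4 began 4 bases before it. Slc7a7 held matches 141 bases and 1 base before its start. In Slc7a11 and Slc1a4 all 3 DDC injury arrays lay above the no-injury ones without passing the test, while Slc7a7 overlapped between the groups (−0.17 ± 0.18 log2, SE, adjusted p = 0.524). A match is a run of letters and not a measured binding site.

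Signals are log2 values relative to the array's 75th percentile, so 0 is the 75th percentile and 1 unit is a factor of 2. They are comparable between arrays for 1 probe and not between probes. The 75th percentile lay at 1441 to 2271 intensity units, 65.0% to 74.8% of 43020 spots per array were well above background, and 0 were saturated. No-injury replicates 1 and 3 differed by no more than repeated spots of 1 array (0.938 times that noise, chi-square test over 167 repeated probes, p = 0.855), so their mean stands for 1 sample. No-injury replicate 2 differed from replicates 1 and 3 by 1.74 and 2.08 times that noise and was kept as a second sample. The fit thus sets 3 samples of DDC injury against 2 of no injury, and these 2 may be technical repeats. DDC injury replicate 2 stood apart from the other DDC injury arrays, at 16.4 and 15.1 times the noise of repeated spots, while replicates 1 and 3 differed by 5.16 times. The 3 scans split along the groups, with no scan shared by both, so scan and group cannot be told apart. A random block for scan changes the errors and cannot remove a difference between scans from the values. All arrays but DDC injury replicate 1 were scanned on the same day, so leaving out that array gives the values within that day. The genes called with DDC injury replicate 2 were also called without it, but for Slc6a8 that fit left a single DDC injury value.

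Of the 62 genes, 41 were bright enough to test, and 12 of these passed an adjusted p of 0.05 in limma. The sodium-coupled glutamine carriers Slc38a1 and Slc38a2 and the epithelial carrier Slc6a19 rose, and 9 genes fell, led by the heavy chain Slc3a1 and the cationic carrier Slc7a2. The share called was 29.3% of the 41, against 33.4% of the 15627 genes tested on the arrays. In single directions 7.32% were higher, against 17.7% of all genes, and 22.0% were lower, against 15.8% of all genes. In both directions together the families were therefore called about as often as any genes. Their share called higher was below, and their share called lower above, that of all genes. This split changed with the settings that follow. Arrays of the groups did not overlap in 25 of the 41 (61.0%), 13 of them higher and 12 lower in DDC injury, against 63.1% of all genes. The median difference was −0.36 log2 among the 41 genes, against −0.07 among all genes, and within the shared scan day it was −0.14, against 0.03. The 41 include 9 dim genes that were not well above background on every array, and all of these 9 had differences below 0. The part of these dim genes in the lower median was not tested. Within the shared scan day 4 of the 41 genes were higher and 6 lower, against 18.2% and 17.9% of all genes. These held 9 of the 12 genes. Slc7a4 and Slc43a2 did not pass, and Slc6a8 had a single DDC injury value left in that fit. With the scan as a random block 3 were higher and 6 lower, against 14.7% and 12.9% of all genes. All 9 were among the 12, and Slc6a8, Slc7a6os and Slc43a2 did not pass. With all 3 no-injury arrays merged into a single sample, Slc7a2 alone of the 12 passed. By another background correction with quantile scaling the calls split into 7 higher and 8 lower (18.7% and 18.5% of all genes). In the authors' deposited log2 values they split into 5 higher and 9 lower (17.8% and 17.5% of all genes).

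**Figure D1:**
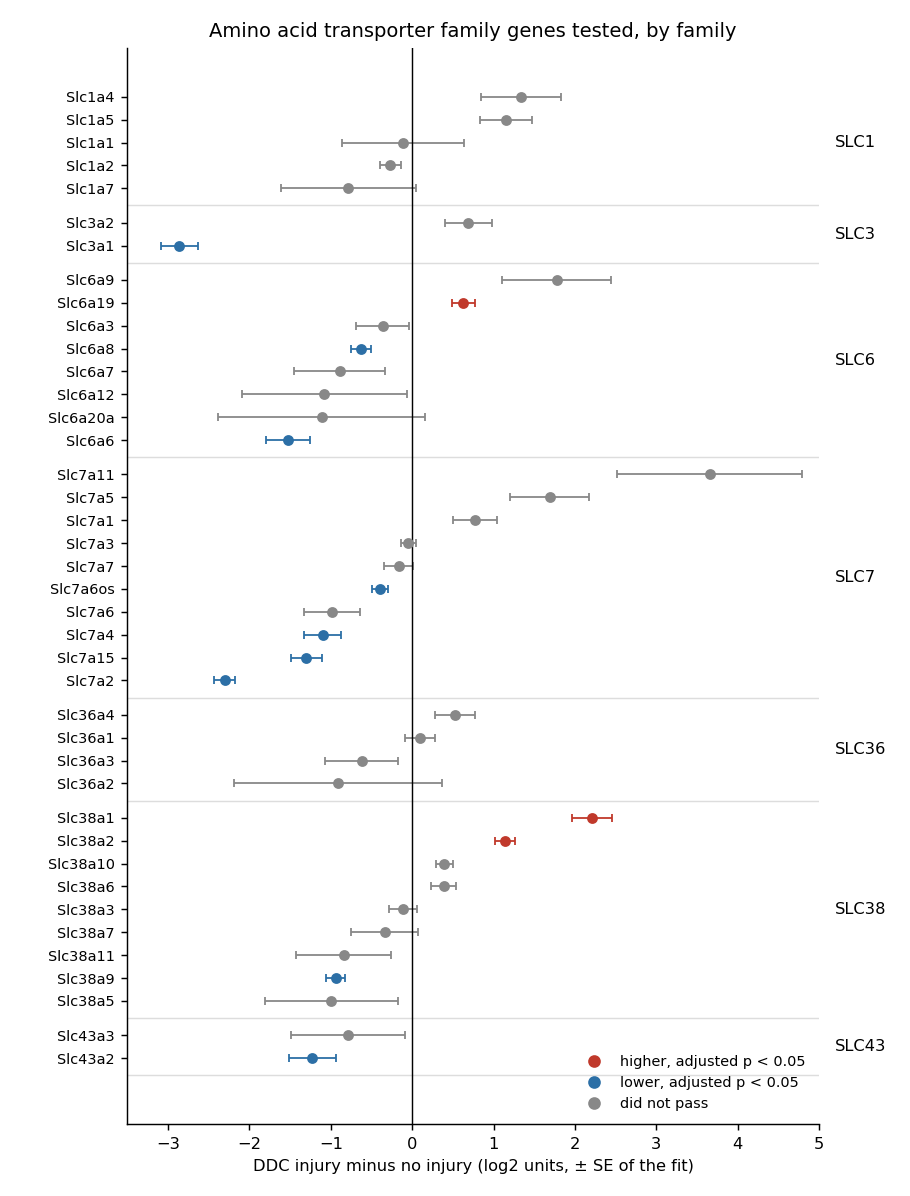
Differences of 40 of the 41 tested genes, DDC injury minus no injury in log2 units, grouped by family with the SE of the fit as bars (3 samples of DDC injury, 2 of no injury). For Slc6a8 there were 2 DDC injury values. Coloured points passed an adjusted p of 0.05 and grey points did not. Slc7a11 has the highest difference and one of the widest bars, and Slc3a1 the lowest difference.

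By family, 0 of 5 tested genes of SLC1 and 0 of 4 of SLC36 passed. In SLC3 1 of 2 fell, and in SLC6 1 of 9 rose and 2 fell. In SLC7 4 of 10 fell and 0 rose, including Slc7a6os. SLC38 had 2 genes that rose and 1 that fell among 9, and SLC43 had 1 that fell among 2. Of all genes tested 17.7% were higher and 15.8% lower. With 2 to 10 tested genes per family, these counts cannot be set apart from those shares. The family medians of SLC3 (−1.09), SLC7 (−0.28) and SLC43 (−1.01) stayed below 0 under all 17 alternative settings. That of SLC3 lies between 2 genes of opposite sign (−2.86 and 0.69), and that of SLC43 rests on 2 genes, 1 of them called. Medians of SLC1, SLC6, SLC36 and SLC38 changed sign under 8, 1, 3 and 7 of the 17. The SLC7 median lies between Slc7a7 (−0.17), whose groups overlap, and Slc7a6os (−0.40), which is no carrier. In SLC7 3 differences were above 0, up to 3.66, and 7 were below. All settings draw on the same arrays. No direction is given for any of the families.

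System A carriers concentrate glutamine, alanine and serine in the cell with sodium, and both of those tested were higher in DDC injury. Slc38a1 had signals of 1.32, 0.61 and 1.12 in DDC injury, against −1.26, −1.17 and −1.18 with no injury. The groups were far apart on every array, with replicate 2 the nearest of the DDC injury arrays to the uninjured ones. It rose by 2.21 ± 0.24 log2 (SE, 4.62-fold, adjusted p = 0.00623). Its other probes gave 1.41 ± 0.22 (adjusted p = 0.0144) and 0.77 ± 0.38 (adjusted p = 0.201), so the direction was shared by all 3 probes and the size was not. Slc38a2, the system A carrier that is best known for its induction by amino acid shortage, had signals of 4.25, 3.98 and 4.18 in DDC injury, against 2.95, 3.01 and 3.01 with no injury. All 3 DDC injury arrays lay within 0.26 log2 of each other and above every uninjured array. It rose by 1.14 ± 0.12 log2 (2.21-fold, adjusted p = 0.00582). Within the shared scan day Slc38a1 differed by 2.06 (adjusted p = 0.00932) and Slc38a2 by 1.09 (adjusted p = 0.0106). The liver system A carrier Slc38a4 was not well above background on any array.

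Lower levels in bulk RNA of a culture can come from fewer cells of a type or from less RNA per cell, and the arrays cannot tell these apart. The 2 heavy chains of SLC3 differed in opposite senses. Slc3a1 encodes rBAT, the partner of the cystine and dibasic amino acid carrier of kidney and gut. Its signals were −6.34, −5.72 and −6.22 in DDC injury, against −3.33, −3.16 and −3.29 with no injury, so even the highest DDC injury array lay more than 2 log2 units below the lowest uninjured one. It fell by 2.86 ± 0.23 log2 (7.26-fold, adjusted p = 0.00301). With another background correction that keeps dim signals higher, the difference shrank to −1.45 and still passed. Slc7a9, the light chain of rBAT, was not well above background on any array. Slc3a2 encodes 4F2hc (CD98), the partner of most other light chains. It had signals of 4.92, 4.12 and 4.84 in DDC injury, against 3.99, 3.91 and 3.95 with no injury, and did not pass (0.69 ± 0.29, adjusted p = 0.141). All 3 DDC injury arrays were above the uninjured ones, but replicate 2 lay close to them.

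Among the cationic carriers, which bring in arginine, lysine and ornithine, Slc7a2 (CAT2) is the form known from liver and activated macrophages. It had signals of −6.28, −6.52 and −6.38 in DDC injury, against −3.99, −4.19 and −3.99 with no injury. The arrays were tight within each group. The DDC injury signals were near the dimmest that the arrays could tell from background, which lay between −7.98 and −6.95. Slc7a2 fell by 2.31 ± 0.13 log2 (4.95-fold, adjusted p = 0.00156), and it was the only one of the 12 called genes to pass under all 17 alternatives, with differences between −2.41 and −0.94. The size of the fall in Slc7a2 depended on the processing. Its difference was −0.94 with the correction that keeps dim signals higher and −1.40 in the authors' deposited log2 values. Slc7a1 (CAT1), the form of most other tissues, had signals of 3.12, 2.36 and 3.01 in DDC injury, against 2.10 and 2.02 with no injury, where 1 spot was dropped as an outlier. It lay higher on every DDC injury array and did not pass (0.77 ± 0.27, adjusted p = 0.0987). Slc7a3 (CAT3) was level across all 6 arrays, between −1.83 and −1.71, and its difference was −0.05 ± 0.09 (adjusted p = 0.729).

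Other SLC7 genes that fell were Slc7a15, Slc7a4 and Slc7a6os. Slc7a4, a CAT-related protein whose substrate is not settled, had signals of −1.08, −0.56 and −1.22 in DDC injury, against 0.14, 0.16 and 0.14 with no injury. It fell by 1.10 ± 0.23 log2 (2.15-fold, adjusted p = 0.0290). Slc7a15 had signals of −7.26, −6.72 and −7.08 in DDC injury, against −5.85, −5.67 and −5.69 with no injury. These are close to the dimmest signals the arrays could tell from background, which lay between −7.98 and −6.95. Its fall of 1.30 ± 0.19 log2 (adjusted p = 0.0120) became −0.20, and did not pass, under the correction that keeps dim signals higher, and it did not pass with quantile scaling either. Its second probe gave −1.01 (adjusted p = 0.0709). Slc7a6os fell by 0.40 ± 0.10 log2 (adjusted p = 0.0402), with signals of −0.53, −0.61 and −0.64 in DDC injury, against −0.19, −0.18 and −0.23 with no injury.

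The taurine carrier Slc6a6 and the creatine carrier Slc6a8 of SLC6 fell. Slc6a6 carries an osmolyte that hepatocytes conjugate to bile acids. Its signals were 3.06, 3.31 and 2.51 in DDC injury, against 4.43, 4.56 and 4.40 with no injury, and no DDC injury array reached the uninjured level. It fell by 1.53 ± 0.27 log2 (2.89-fold, adjusted p = 0.0186). Slc6a8 had signals of 1.87 and 2.00 on the 2 DDC injury arrays with a value, against 2.52, 2.59 and 2.55 with no injury, and replicate 3 of DDC injury was dropped as an outlier spot. It fell by 0.63 ± 0.12 log2 (adjusted p = 0.0371). Slc6a12, a betaine and GABA carrier, differed by −1.08 ± 1.02 log2 and overlapped between the groups.

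Slc6a19 (B0AT1) takes up neutral amino acids in gut and kidney and needs a surface partner such as collectrin (Cltrn). It had dim signals of −5.03, −5.36 and −5.30 in DDC injury, against −5.80, −5.79 and −6.05 with no injury, and rose by 0.63 ± 0.15 log2 (1.55-fold, adjusted p = 0.0360). This call was lost in 8 of 17 alternatives, the authors' deposited log2 values among them, where the difference was 0.35. Collectrin moved the other way. Cltrn was not well above background on any DDC injury array and was at least 8.68-fold lower than with no injury (adjusted p = 0.00262). Such a bound sets the mean of the brighter group against the lowest signals that are well above background on the dim arrays.

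Of the leucine-carrying system L, Slc43a2 (LAT4), which lets large neutral amino acids flow down their gradient, fell. It had signals of −0.70, 0.13 and −0.60 in DDC injury, against 0.83, 0.82 and 0.87 with no injury. Replicate 2 was the nearest to the uninjured arrays and still below them. The fall was 1.23 ± 0.29 log2 (2.34-fold, adjusted p = 0.0393). Slc43a3, which is known as a purine base carrier, overlapped between the groups (−0.79 ± 0.70, adjusted p = 0.443), and no array showed Slc43a1 or the LAT2 gene Slc7a8 well above background.

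Slc38a9 sits in the lysosomal membrane and reports arginine to the mTORC1 kinase. Its signals were −0.14, 0.01 and −0.22 in DDC injury, against 0.83, 0.82 and 0.81 with no injury. It fell by 0.94 ± 0.11 log2 (1.92-fold, adjusted p = 0.00784), and its other probes fell by 0.61 (adjusted p = 0.0176) and 1.47 (adjusted p = 0.0137). The lysosomal and plasma membrane proton-coupled carrier Slc36a1 differed by 0.10 ± 0.18 (adjusted p = 0.719), with overlapping groups and a sign that changed with the background correction. Slc36a4 gave 0.52 ± 0.24 with one probe and −0.39 ± 0.23 with the other, and neither passed.

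**Figure D2:**
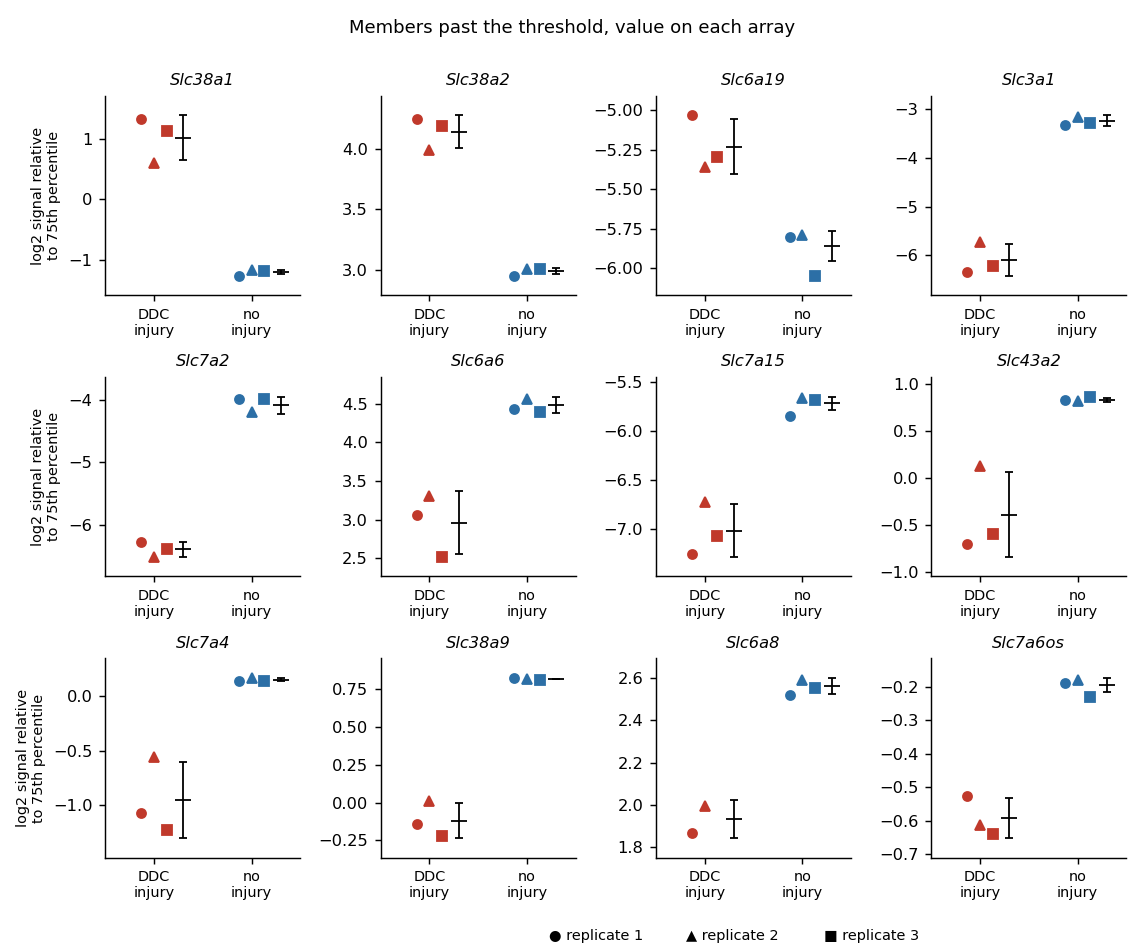
Signal of each of the 12 genes past an adjusted p of 0.05 on every array, in log2 units relative to the array's 75th percentile, with DDC injury on the left and no injury on the right of each panel. Marker shapes give the replicate number, and bars give the mean ± SD of the samples (3 DDC injury, 2 no injury after averaging replicates 1 and 3). In Slc6a8 the DDC injury bar rests on 2 values. Groups are apart in every panel, and each panel has an axis of its own.

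In several carriers that did not pass, DDC injury replicate 2 lay between the other DDC injury arrays and the uninjured ones. Slc7a11 encodes xCT, which imports cystine for glutathione in exchange for glutamate. Its signals were 1.33, −1.94 and 1.13 in DDC injury, against −3.55, −3.39 and −3.60 with no injury. Replicates 1 and 3 were nearly equal, replicate 2 was about 3 log2 units below them, and all were above every uninjured array. The difference was 3.66 ± 1.14 log2 (adjusted p = 0.0739), and without replicate 2 it was 4.71 ± 0.12 (26.2-fold, adjusted p = 0.00227). The smaller SE follows the removal of the array that lay apart. Without replicate 1 the difference was 3.08 (adjusted p = 0.110), and without replicate 3 it was 3.18 (adjusted p = 0.177). Slc7a5 encodes LAT1, the exchanger that brings in leucine and other large neutral amino acids. It had signals of 2.96, 1.74 and 3.18 in DDC injury, against 1.00, 0.88 and 0.98 with no injury, and differed by 1.69 ± 0.49 log2 (adjusted p = 0.0618). Its second probe passed (1.44 ± 0.32, adjusted p = 0.0357), and without replicate 2 the gene passed too (2.13 ± 0.12, adjusted p = 0.00458). It did not pass without replicate 1 (1.52, adjusted p = 0.101) or without replicate 3 (1.41, adjusted p = 0.137).

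The neutral amino acid exchangers of SLC1 showed the same arrangement. Slc1a5 (ASCT2) takes up glutamine. It had signals of 2.92, 2.00 and 2.78 in DDC injury, against 1.45, 1.40 and 1.41 with no injury. Although the groups were apart, the difference of 1.16 ± 0.32 log2 missed the threshold (adjusted p = 0.0549), while its second probe passed (1.38 ± 0.34, adjusted p = 0.0447). Slc1a4 (ASCT1) carries serine and alanine. It had signals of 1.46, 0.32 and 1.81 in DDC injury, against −0.10, −0.13 and −0.20 with no injury, a difference of 1.34 ± 0.49 log2 (adjusted p = 0.106). The glycine carrier Slc6a9 (GLYT1) had signals of 3.72, 1.84 and 3.66 in DDC injury, against 1.37, 1.29 and 1.26 with no injury. It differed by 1.77 ± 0.67 log2 (adjusted p = 0.113), and its second probe gave 1.78 ± 0.75.

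In the other direction, Slc7a6 (y+LAT2), which exchanges cationic for neutral amino acids, had signals of −1.53, −0.53 and −1.36 in DDC injury, against −0.15, −0.19 and −0.09 with no injury. It too had replicate 2 nearest to the uninjured arrays, and its difference of −0.99 ± 0.34 log2 missed the threshold (adjusted p = 0.0961). Slc38a7, a lysosomal glutamine exporter, was the exception in form: replicate 2, at −0.14, lay below every other array, and the other 5 arrays lay between 0.92 and 1.00.

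**Figure D3:**
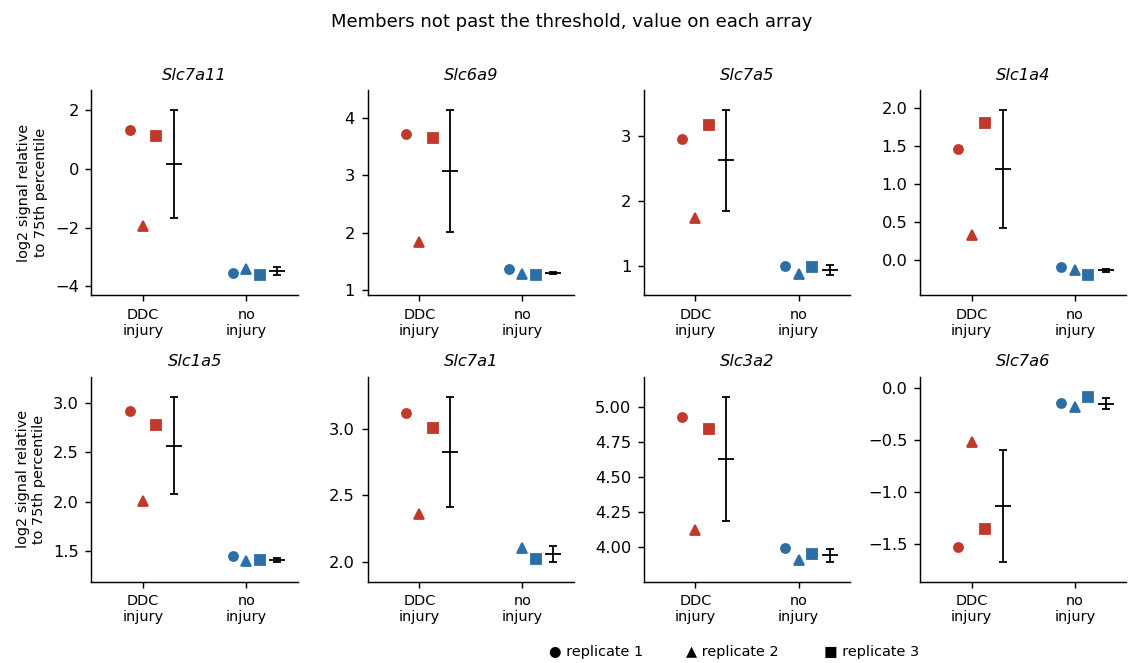
Signal on every array of 8 genes that did not pass and whose DDC injury replicate 2 (triangle) lay nearest to the no-injury arrays, in log2 units relative to the array's 75th percentile. Bars give the mean ± SD of the samples, and DDC injury is on the left of each panel. In Slc7a11 the triangle is at −1.94, against 1.33 and 1.13 on the other DDC injury arrays.

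Without DDC injury replicate 2, 11 of the 41 genes were called higher and 11 lower (26.8% each), against 24.2% and 20.3% of all genes. Slc6a8, among the lower, then rests on a single DDC injury value. The 8 genes that were added as higher were Slc1a4, Slc1a5, Slc3a2, Slc6a9, Slc7a1, Slc7a5, Slc7a11 and Slc36a4, and the 2 added as lower were Slc6a7 and Slc7a6. In complete genes without overlap between the groups, replicate 2 was the DDC injury array nearest to no injury in 9 of 12 higher and 8 of 11 lower family genes (75% and 72.7%), against 39.9% of 4862 higher and 39.5% of 4862 lower genes on the arrays. Over the 30 family genes well above background on all 6 arrays, replicate 2 lay at least 2-fold below the mean of the other DDC injury arrays in 5 (16.7%) and at least 2-fold above it in 0, against 3.14% and 3.03% of 13162 genes. The median range between the DDC injury arrays was 0.66 log2 in these 30 genes, against 0.11 between the no-injury arrays. For all 13162 genes these ranges were 0.38 and 0.10.

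**Figure D4:**
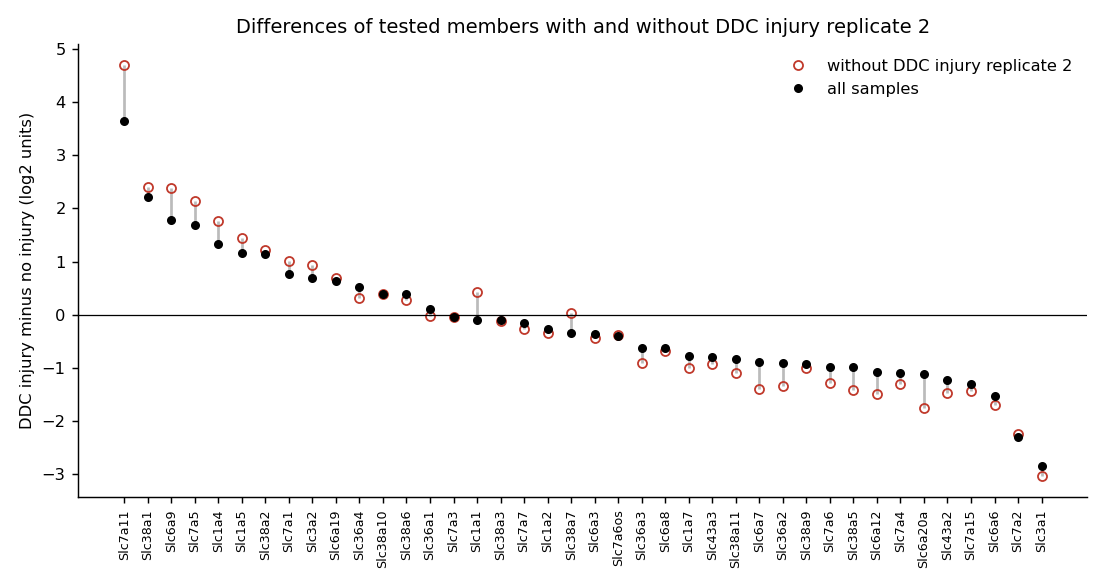
Difference of 40 of the 41 tested genes, DDC injury minus no injury in log2 units, without DDC injury replicate 2 (open circles) and with all samples (filled circles). Genes are ordered by the difference with all samples. Slc7a11 is at 4.71 without that array and at 3.66 with it, and the gap is wide too in Slc6a9, Slc7a5 and Slc1a4.

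The dim end of the families carried little. Single arrays stood far off there, as in Slc36a2, a carrier of small neutral amino acids and proline, with signals of −10.0, −6.84 and −6.24 in DDC injury, against −6.51, −7.10 and −6.48 with no injury. Among 9 tested genes that were dim and not well above background on every array, DDC injury replicate 1 was the lowest of the DDC injury arrays in 7. The glutamate carrier Slc1a1 was one of these 9, had a difference of −0.11 ± 0.75 (adjusted p = 0.927) and changed sign under several alternatives. On none of the 6 arrays were the following well above background: Slc6a11, Slc6a14, Slc6a18, Slc6a20b, Slc7a8, Slc7a9, Slc7a12, Slc7a13, Slc38a4 and Slc43a1. A further 11 were so on 1 or 2 arrays only and were not tested, among them the glutamate carriers Slc1a3 and Slc1a6, the serotonin carrier Slc6a4 and the alanine, serine and cysteine exchanger Slc7a10.

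The genes that act with these carriers are given from lists of the pathway, with the same test. The shares of all genes to set beside these counts were 17.7% higher and 15.8% lower. Of 13 tested genes of the amino acid response 4 rose and 0 fell: Atf4 itself (0.69 ± 0.11, adjusted p = 0.0139), Ddit4 (0.92, adjusted p = 0.00525), Cebpb (0.37) and Sesn2 (0.63). In Atf4 the signals were 5.64, 5.61 and 5.79 in DDC injury, against 4.98, 4.97 and 5.05 with no injury, so here replicate 2 was as high as the other DDC injury arrays. Trib3, Chac1, Nupr1, Ddit3, Atf5 and Vldlr did not pass, and in each of these 6 of 11 bright genes replicate 2 lay at least 2-fold below the others. Trib3, a pseudokinase induced by ATF4, had signals of 4.54, 2.36 and 4.75 in DDC injury, against 2.31, 2.28 and 2.30 with no injury. Without replicate 2, 12 of the 13 were called higher, against 24.2% of all genes. For genes with no value on replicate 3, Atf3 among them, that call rests on replicate 1 alone. Within the shared scan day 2 of the 13 were higher, Atf4 and Ddit4, and with the scan as a random block the same 2 were, against 18.2% and 14.7% of all genes. Cebpb and Sesn2 did not pass in either. Atf3, a stress-induced transcription factor, differed by −1.51 within the shared scan day, from replicate 2 alone. Without replicate 2 it differed by 1.99, from replicate 1 alone.

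Enzymes that use or make the carried amino acids were mixed. Serine and glycine metabolism had 4 of 10 genes higher and 0 lower, led by Phgdh, the first enzyme of serine synthesis (2.00 ± 0.14, 3.99-fold, adjusted p = 0.00248), with Psph (1.39), Shmt1 (0.70) and Psat1 (0.62). Of these 4, Psph did not pass within the shared scan day or with the scan as a random block. In glutamine, glutamate and aspartate metabolism 3 of 14 rose and 0 fell. Among them were the glutaminase Gls2 (1.86, adjusted p = 0.00200) and Cad (0.88), which starts pyrimidine synthesis from glutamine. Cth, which makes cysteine from cystathionine, rose by 3.76 ± 0.95 log2 (adjusted p = 0.0450). Its signals were 2.05, −0.67 and 1.92 in DDC injury, against −2.59, −2.71 and −2.63 with no injury, and as in Slc7a11 replicate 2 was the lowest DDC injury array and above all uninjured ones. It did not pass within the shared scan day (3.29, adjusted p = 0.0681) or with the scan as a random block (adjusted p = 0.0664). Cbs, the enzyme before it, fell by 0.72 (adjusted p = 0.0121), and these were the only calls among 13 genes of cysteine and glutathione metabolism.

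For arginine and its products, 3 of 12 genes rose and 2 fell. The polyamine synthases Srm (1.33, adjusted p = 0.00510) and Sms (1.15, adjusted p = 0.00937) and ornithine aminotransferase Oat (0.85) rose, while the mitochondrial arginase Arg2 (−2.95, adjusted p = 0.000949) and the proline-degrading enzyme Aldh4a1 (−0.95) fell, the last not within the shared scan day or with the scan as a random block. Of 10 genes of branched chain and aromatic metabolism 1 rose and 3 fell. Bckdk, the kinase that switches off branched chain breakdown, rose (0.50), but did not pass within the shared scan day (adjusted p = 0.0535) or with the scan as a random block (adjusted p = 0.0529). Bckdha (−0.52) and Dbt (−0.64), subunits of the enzyme it acts on, were among those that fell. Cytosolic aminoacyl-tRNA synthetases, which load amino acids onto tRNA, had 6 of 18 higher and 0 lower, with Cars the highest (1.05, adjusted p = 0.00790). Without DDC injury replicate 2, 14 of the 18 were called higher, against 24.2% of all genes. Within the shared scan day 4 were (18.2% of all genes), and with the scan as a random block 3 (14.7% of all genes).

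Amino acid sensing upstream of mTORC1 had 4 of 32 genes higher and 4 lower with a median of −0.04 log2. The Rag GTPase Rragb (0.86), the sestrin Sesn3 (0.87), the GATOR subunit Sec13 (0.63) and the Ragulator subunit Lamtor2 (0.61) rose, the last with DDC injury replicate 1 dropped as an outlier. Mtor fell by 1.28 ± 0.14 log2 (2.43-fold, adjusted p = 0.00596), and Sesn1 (−0.91), Tsc2 (−0.83) and Fnip2 (−0.57) fell too. Among 14 genes of amino acid transport outside these families 0 rose and 4 fell: the mitochondrial glutamate carrier Slc25a22 (−2.35, adjusted p = 0.0143), the lysosomal cystine exporter Ctns (−1.17, adjusted p = 0.00306), the mitochondrial branched chain carrier Slc25a44 (−0.64) and the lysosomal cationic amino acid exporter Slc66a1 (−0.56). Of 11 partners and trafficking genes 2 rose and 3 fell. Prkcd (0.58) and Cd44 (0.62), which binds xCT, rose, and Nedd4l, a ubiquitin ligase of several carriers, fell (−2.10, adjusted p = 0.00184), as did Cltrn. Cd44 and Slc66a1 did not pass within the shared scan day or with the scan as a random block, and Lamtor2 did not with that block. The share called in these lists, as in the carriers, stands against 33.4% of all genes in either direction, 17.7% higher and 15.8% lower. Within the shared scan day the shares of all genes were 18.2% higher and 17.9% lower. With the scan as a random block they were 14.7% and 12.9%.

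**Figure D5:**
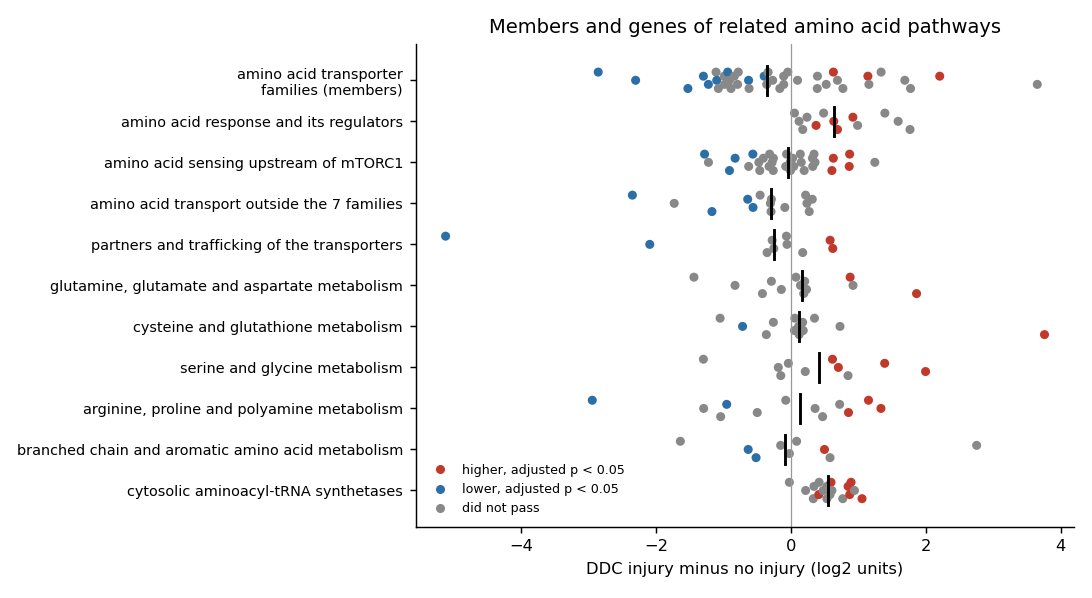
Differences of the tested carriers and of the tested genes in 10 lists of related pathways, DDC injury minus no injury in log2 units, 1 point per gene. Vertical bars give each list's median, and colours give calls at an adjusted p of 0.05. The medians run from −0.36 in the carriers to 0.63 in the amino acid response. Genes not reported here are not drawn as points but count in the medians. Cltrn has only a bound, and its plotted value is the fitted one.

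Some markers of hepatocytes, cholangiocytes and mesothelium were lower in DDC injury, where 15.8% of all genes were called lower and 17.7% higher. Of 7 hepatocyte markers, 4 fell and 0 rose, and their summed signal, as multiples of the 75th percentile, was 11.1 to 17.7 in DDC injury, against 29.7 to 34.0 with no injury. Apoa1 was not well above background on any DDC injury array and was at least 42.5-fold lower. Of 8 cholangiocyte markers 4 fell and 0 rose, with sums of 51.1 to 56.4 in DDC injury, against 64.4 to 66.1 with no injury. Of 4 mesothelial markers 3 fell, with sums of 22.2 to 27.9 in DDC injury, against 24.9 to 27.4 with no injury. No marker of leukocytes, stellate cells or endothelium passed. Their sums were 0.103 to 0.512, 0.153 to 1.01 and 0.170 to 0.472 in DDC injury, against 0.422 to 0.650, 0.358 to 0.508 and 0.470 to 0.518 with no injury, and no array showed Clec4f, Des or Reln well above background. Cd63, the sorted antigen, differed by −0.11 ± 0.17 (adjusted p = 0.659). The family genes called lower thus fell in the same samples as some hepatocyte, biliary and mesothelial markers. The part of cell composition in the values of the family genes was not tested.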

How the data were processed

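The 6 samples were each hybridised to 1 Agilent array. Per the file headers, Feature Extraction 11.0.1.1 made the processed signal used here, an intensity with the array's background subtracted. The deposited value table holds log2 values normalized by the authors, and the submitters' processing notes name limma. Here, outlier-flagged spots were dropped, repeated spots averaged, and log2 signals set relative to each array's 75th percentile. Probes were named by transcript accession in RefSeq (GRCm38.p6): 27234 of 39429 had 1 symbol and 12195 none. The arrays' own annotation is of another build, so probe coordinates are not given. A gene took its brightest probe and was tested if 3 or more of the 6 arrays showed it well above background and each group had 2 or more values. The test was limma's (version 3.58.1 under R 4.3.3, two-sided, Benjamini-Hochberg over 15627 genes, threshold 0.05). The fit was tested on simulated data. Arrays counted separately were the plan, but no-injury replicates 1 and 3 agreed within noise and were averaged. Alternatives were other background corrections (normexp, offset 50), scalings, filters, probe summaries, sample counts, blocks and left-out arrays. Deviations of same-numbered samples correlated at 0.165, 0.0821 and −0.00728, so the numbers were not taken to pair them. Genes named were those past the threshold and carriers picked by name, and up to 4 genes per list by smallest adjusted p. Some array values of single genes were added to show DDC injury replicate 2, after they were seen. The gene families, lists and tests were chosen with earlier results of these data known. The number of arrays limits the precision. A few genes enter the counts and fits but are not reported here.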

Additional observations from a re-analysis of the deposited data

How the results depend on the processing

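None of the 12 called genes changed direction in the 17 alternatives, or in the 16 that gave a value for Slc6a8, which the filter for all 6 arrays left out. The 3 higher calls (17.7% of all genes) became 7 with normexp and quantile normalization (18.7% of all genes), 5 in the authors' deposited log2 values (17.8%), 5 when probes of a gene were averaged (17.5%), 6 of 30 genes tested with the filter for all 6 arrays (22.1%) and 10 with all 6 arrays separate (24.6%). When all 3 no-injury arrays were merged, 0 were higher and 1 lower (Slc7a2), against 2.19% and 1.32% of all genes, since 1 sample then stands for the group. With 6 arrays and the replicate number as a replicate block, 7 were higher and 7 lower, against 18.2% and 17.4% of all genes. With scan as a random block (correlation 0.176) 3 were higher and 6 lower, against 14.7% and 12.9%. Leaving out 1 array in turn gave 0 to 11 higher and 1 to 11 lower; the lowest counts came without no-injury replicate 2, which leaves that group 1 sample assumed to vary like the other, and the highest without DDC injury replicate 2. All genes moved alike, from 2.2% higher and 1.27% lower without the one to 24.2% and 20.3% without the other. Slc1a1 (−0.11) was 0.29 with normexp and the 75th percentile, 0.11 with normexp and quantile normalization, 0.15 in the authors' values, and −0.75 to 0.42 over left-out arrays. Slc36a1 (0.10) was −0.019 with normexp and the 75th percentile, and −0.031 (without DDC injury replicate 2) to 0.22 over left-out arrays. The cause was not tested. The median of all genes was 0.07 with normexp and the 75th percentile, against −0.07 as reported, and −0.10 to 0.03 in the other alternatives. That correction moved dim genes, Slc3a1 to −1.45, Slc7a2 to −0.94, Slc7a15 to −0.20 and Slc6a19 to 0.31, the last 2 no longer called, and 21 of the 62 genes were too dim to test.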
